A study of Rattus norvegicus with 14 samples.

Results

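The nuclear-encoded subunits of the mitochondrial respiratory chain and ATP synthase were followed in fetal rat testis across vehicle and 4 doses of DCHP (dicyclohexyl phthalate), a phthalate ester used as a plasticizer. The members were all rows of the count table whose gene name begins as a subunit of complex I (Nduf followed by a, b, c, s or v and a number), complex II (Sdha to Sdhd), complex III (Uqcr), complex IV (Cox4 to Cox8) or ATP synthase, also called complex V (Atp5). This gave 72 of 18174 rows, with 71 different symbols because Ndufa10l1 stands on 2 rows. Rows were taken by name alone, although the name pattern was chosen with earlier results of these data known. Harlan Sprague Dawley dams were gavaged with corn oil alone (0 mg/kg/day, the vehicle group) or with DCHP in corn oil from gestational day 14 to 18, at daily doses of 100, 300, 600 and 900 mg/kg, and testes were taken on day 18. Fetal testes were pooled within a litter, so a library stands for 1 litter, and there were 2 litters in the group of the highest dose and 3 in every other. RNA was measured with TempO-Seq, an assay that counts probe pairs joined while bound side by side to a transcript. The probes differ between genes in how well they count, so levels are compared between litters and never between genes.

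The respiratory chain sits in the inner mitochondrial membrane. Complex I oxidises NADH and complex II, which is also the succinate dehydrogenase of the citric acid cycle, oxidises succinate, and both pass electrons through ubiquinone to complex III, cytochrome c and complex IV, where oxygen is reduced. Complexes I, III and IV pump protons, and ATP synthase uses the gradient to make ATP. Testosterone synthesis in fetal Leydig cells begins at the same membrane, where the cholesterol side-chain cleavage enzyme Cyp11a1 receives electrons from ferredoxin (Fdx1) and ferredoxin reductase (Fdxr) after Star has delivered cholesterol, and that pathway is the best known target of phthalates in the fetal rat testis.

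Complex I held 35 of the member rows, complex II 4, complex III 7, complex IV 12 and ATP synthase 14, grouped by name. Ndufa4 is counted here with complex I after its name, although the protein is now placed in complex IV. Counts were high enough to test 64 members, namely 29, 4, 7, 11 and 13 of the respective complexes. Their mean counts had a median of 580.0 per litter, against 137.0 for all 12719 tested genes. The 8 members left out for low counts were Ndufa13, Ndufa4l2, Ndufc2, Ndufs5, Ndufs6, Cox6c-ps1, Atp5me and the Ndufa10l1 row on chromosome 6 (59879312 to 59881242 on rn7, the build of the table), whose mean counts were between 0.786 and 5.43. The Ndufa10l1 row on chromosome 9 (93007042 to 93042561 on rn7) was tested. The name pattern also took in rows named as pseudogenes. Of these, Ndufv3-ps1 (mean count 16.5) was tested and is counted with complex I, and Cox6c-ps1 was left out as above. Some subunits are not analysed here, among them Cox5b, Cox6b1, Cox7a2, Cox8a, Atp5f1c and Atp5f1e. Counts were not whole in at least 1 litter for 29 of the tested members, and for 12 of them, Sdhb and Ndufv2 included, in all 14 litters. How reads were divided between rows to give such values is not given in the sources used here, so these values are less certain than those of the 35 members with whole counts.

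Libraries held 5558873 to 11272861 estimated counts. On the first principal component of all tested genes, which carried 36.1% of the variance, vehicle litter 1 (-42.6), 100 mg/kg/day litter 1 (-65.1) and the 900 mg/kg/day litters (-38.2 and -22.8) lay apart from the other 10 litters (-1.84 to 35.6). Counts of members and medians over all members that rest on vehicle litter 1 and 100 mg/kg/day litter 1 are therefore given with and without them. Counts and median fold changes by complex are given with all litters only. The labelled tissue was checked against its markers. The Sertoli cell gene Sox9 was found at 286 to 419 CPM (read counts scaled to a common library total with TMM factors, the unit of all levels below) and the germ cell gene Ddx4 at 444 to 674 CPM, while 5 hepatocyte genes summed to at most 16.4 CPM in any litter.

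None of the 64 tested members passed the test against vehicle at any dose. Levels were fitted with edgeR's quasi-likelihood test over all 14 litters, and p-values were adjusted over the 12719 tested genes by Benjamini-Hochberg, with a call under 0.05. At 100 mg/kg/day 0 members passed (0% of all genes did), at 300 mg/kg/day 0 (0.0472% of all genes), at 600 mg/kg/day 0 (0.22%) and at 900 mg/kg/day 0 (0.252%). Between neighbouring doses 0 members passed at 300 against 100, 600 against 300 and 900 against 600 mg/kg/day, where 0% of all genes passed in each. For the slope over dose, in log2 units per 100 mg/kg/day, 0 members passed against 0.425% of all genes. With so small a share of all genes passing, 0 members is near the background. DESeq2's Wald test also called 0 members in each of the 8 comparisons, beside at most 0.936% of all genes (for the slope).

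At an unadjusted p under 0.05 the same test gave 1 member at 100 mg/kg/day (3.4% of all genes), 0 at 300 (3.65%), 1 at 600 (4.79%) and 7 at 900 (4.99%). All 7 members at 900 mg/kg/day were lower than vehicle, and they were Ndufa2, Ndufa4, Ndufb4, Ndufs3, Sdhb, Cox7b and Atp5f1d. Between neighbouring doses it gave 3 members at 300 against 100 (2.45% of all genes), 0 at 600 against 300 (1.27%) and 9 at 900 against 600 mg/kg/day (8.32%), the 9 all lower at 900. The slope had 5 members under that limit, all negative (Ndufa6, Ndufs4, Sdhb, Atp5f1b and Atp5f1d), against 5.09% of all genes. None of these holds after adjustment.

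The unadjusted counts also moved with single litters. At 900 mg/kg/day against vehicle the 7 became 19 without vehicle litter 1 (14.5% of all genes), 17 without 100 mg/kg/day litter 1 (8.87%), 3 without vehicle litter 3 (4.13%), and 1 and 3 without 900 mg/kg/day litter 1 and litter 2 (2.5% and 4.02%). At 900 against 600 mg/kg/day the 9 became 19 without 100 mg/kg/day litter 1 (20.3% of all genes), 2 without either 900 mg/kg/day litter (2.11% and 5.46%) and 3, 5 and 5 without 600 mg/kg/day litters 1, 2 and 3 (4.83%, 6.46% and 4.45%). For the slope the 5 became 8 without vehicle litter 1 (7.75%), 10 without 100 mg/kg/day litter 1 (8.12%), 2 without vehicle litter 3 (4.89%), 3 without 600 mg/kg/day litter 3 (4.81%), and 3 and 2 without 900 mg/kg/day litter 1 and litter 2 (4.2% and 3.78%). Counts at 100, 300 and 600 mg/kg/day against vehicle stayed between 0 and 2 as single litters were left out, and the 3 at 300 against 100 became 0 and 1 without 300 mg/kg/day litters 2 and 3 (1.86% and 1.65% of all genes) and 8 without 100 mg/kg/day litter 3 (5.51%). Without vehicle litter 1 and 100 mg/kg/day litter 1 together there were 27 of 63 members at 900 mg/kg/day (31.7% of all genes), 28 at 900 against 600 (28.8%), 27 for the slope (30.7%) and 2 at 300 against 100 (5.48%). Against vehicle there were then 0 at 100, 3 at 300 and 2 at 600 mg/kg/day, beside 716, 712 and 826 of 12608 genes. At 600 against 300 mg/kg/day there was 1, beside 288 of 12608 genes.

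The smallest adjusted p of any member was 0.666 at 900 mg/kg/day against vehicle (Cox7b), 0.508 at 900 against 600 and 0.547 for the slope (Sdhb).

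**Figure D1:**
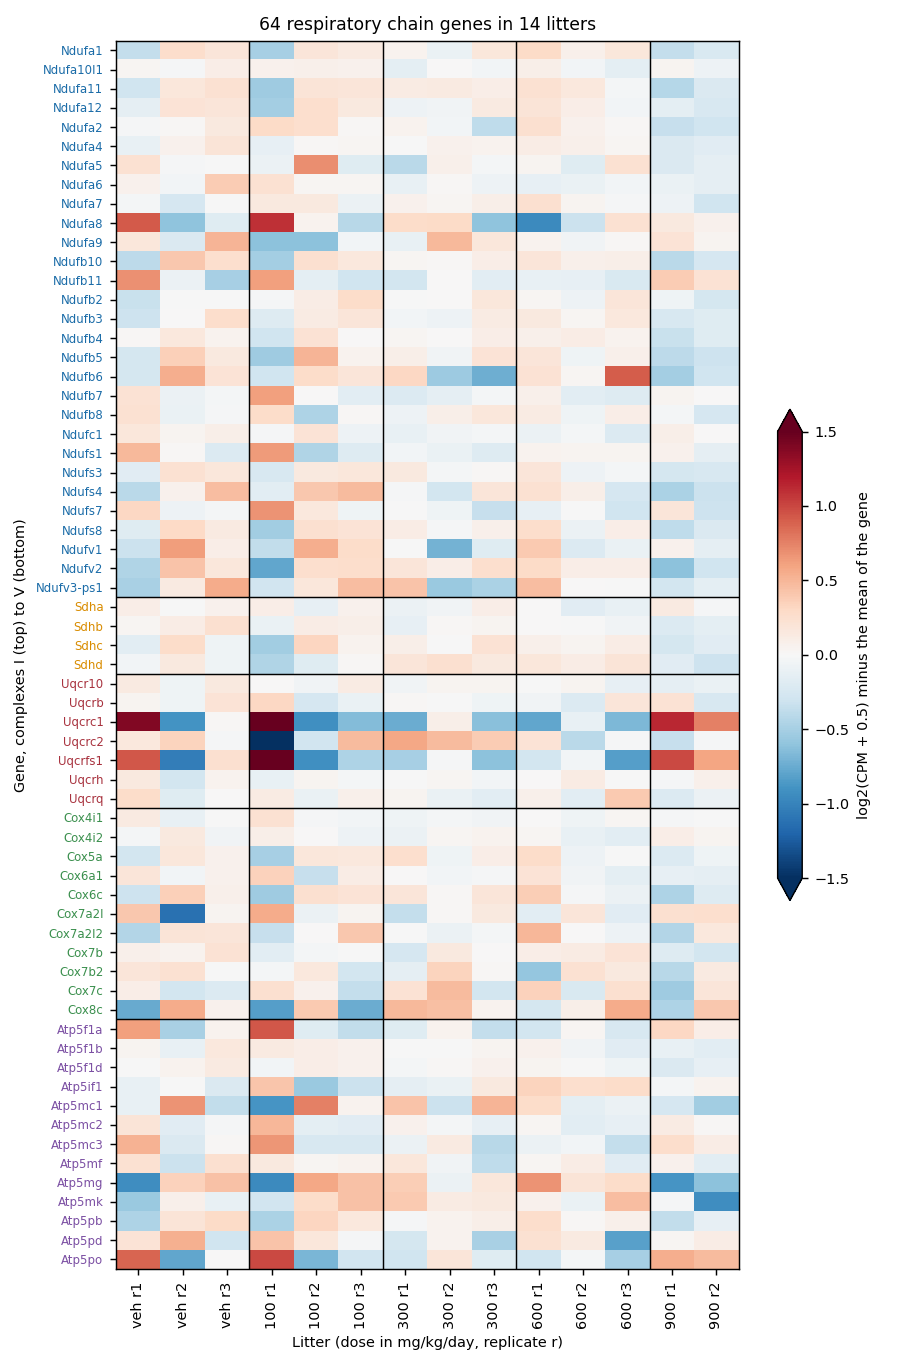
Level of each of the 64 tested members (rows, grouped by complex I to V) in each of the 14 litters (columns, by dose in mg/kg/day and replicate r), as log2(CPM + 0.5) minus the gene's mean over the litters, with red above and blue below. Colour is weak in most rows, and the strongest reds stand for Uqcrc1 and Uqcrfs1 in 100 mg/kg/day litter 1.

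The median log2 fold change of the 64 members was -0.014 at 100, -0.052 at 300, -0.038 at 600 and -0.19 at 900 mg/kg/day, where the median of all tested genes was 0.024. At 900 mg/kg/day 51 of 64 members had a value below 0 (46.9% of all genes did), and 55 of 64 slopes were negative (49.9% of all genes). Without vehicle litter 1 and 100 mg/kg/day litter 1 the median at 900 mg/kg/day was -0.26 with 49 of 63 values below 0, and 47 of 63 slopes were negative. The medians at 100, 300 and 600 mg/kg/day were then -0.0078, -0.063 and -0.055. The members' median level varied between litters of a dose with a pooled SD of 0.053 on the log2 scale. Scaling moved the members and all genes alike: at 900 mg/kg/day the members' median was -0.11 with library totals in place of TMM and -0.21 with RLE size factors, where the medians of all genes were 0.105 and 0.0030, so the members lay below all genes by a like amount under each scaling. Leaving out 1 litter at a time moved the members' median from -0.043 (without vehicle litter 1) to 0.0057 (without vehicle litter 2) at 100 mg/kg/day, which changes its sign. It ran from -0.096 (without vehicle litter 2) to -0.021 (without vehicle litter 3) at 300, from -0.092 (without 600 mg/kg/day litter 1) to -0.0064 (without vehicle litter 3) at 600 and from -0.23 to -0.18 at 900 mg/kg/day. Complex I had 28 of 29 values below 0 at 900 mg/kg/day with a median of -0.26, complex II 3 of 4 (-0.25), complex III 4 of 7 (-0.079), complex IV 8 of 11 (-0.11) and ATP synthase 8 of 13 (-0.13). The extremes at this dose were Atp5mg (-0.86) and Uqcrfs1 (0.57), and at 600 mg/kg/day Uqcrc1 (-0.98) and Atp5if1 (0.42), all as log2 fold changes against vehicle.

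Intervals of the fold change show which changes in pooled testis RNA the fit could have missed, given its estimate of the variation between litters. At 900 mg/kg/day they do not cover whatever sets the litters that lay apart from the others. The 95% interval of the fold change lay within 2-fold of vehicle, up or down, for 57 members at 100, 53 at 300, 54 at 600 and 50 of 64 at 900 mg/kg/day. Within 1.5-fold it lay for 39, 40, 37 and 19 members at the same doses. Complex II was the most tightly bound, with all 4 genes within 2-fold at every dose and within 1.5-fold at 100, 300 and 600 mg/kg/day. The widest intervals belonged to Ndufa8, Uqcrc1, Uqcrfs1 and Cox8c. The variation between litters of a dose, as a biological coefficient of variation, had a median of 0.176 over the members against 0.208 over all tested genes, and ran from 0.124 in complex II through 0.154 (III), 0.173 (I) and 0.193 (IV) to 0.23 in ATP synthase. Without vehicle litter 1 and 100 mg/kg/day litter 1 the interval lay within 2-fold for 55, 55, 58 and 49 of 63 members at 100, 300, 600 and 900 mg/kg/day, and within 1.5-fold for 43, 45, 44 and 23. The median variation was then 0.112 over the members and 0.145 over all tested genes, lowest in complex II (0.0964) and highest in complex III (0.176).

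**Figure D2:**
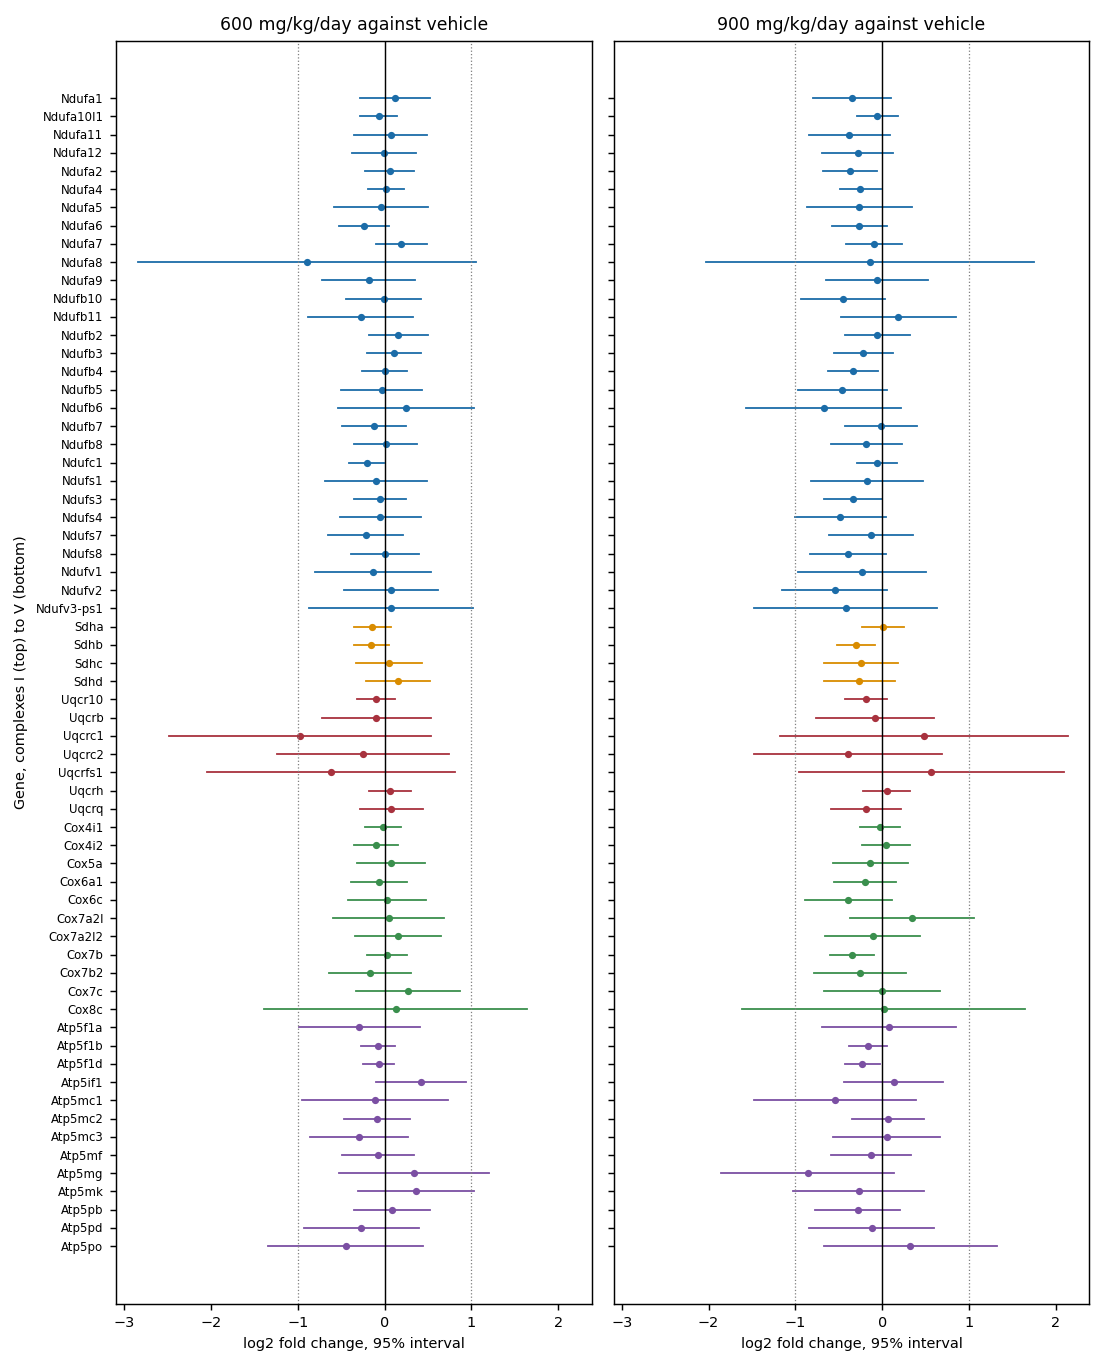
Log2 fold change against vehicle (points) with its 95% interval (lines) for each tested member at 600 and 900 mg/kg/day, coloured by complex, with dotted lines at 2-fold down and up. At 600 mg/kg/day the points lie on both sides of 0, and at 900 mg/kg/day 51 of 64 lie below it.

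Whether every treated litter lay beyond every vehicle litter was counted as well. At 600 mg/kg/day this held for 1 member above vehicle (Atp5if1), as for 5.06% of all genes, and for 2 below (Ndufc1 and Sdhb), as for 5.92%. At 900 mg/kg/day it held for 0 members above vehicle, against 10.3% of all genes, and for 17 below, or 26.6% of members against 8.83% of all genes. The 17 were Ndufa12, Ndufa2, Ndufa4, Ndufa5, Ndufa6, Ndufb4, Ndufb5, Ndufb6, Ndufs3, Ndufs8, Sdhb, Sdhc, Sdhd, Uqcr10, Cox6a1, Cox7b and Atp5f1d. This is a count over 2 litters against 3 and not a test. Without vehicle litter 1 it was 10 members above (32.2% of all genes) and 31 below (26.2%) at 900 mg/kg/day, and 2 above (9.93%) and 4 below (10.4%) at 600 mg/kg/day. In pooled testis RNA, fewer cells of a type and less RNA per cell cannot be told apart.

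Complex I takes up electrons through a peripheral arm built on core subunits that carry flavin and iron-sulphur clusters. Ndufv1, which binds NADH and flavin, measured 7.55, 15.03 and 10.3 CPM in the vehicle litters, 7.32, 14.221 and 11.7 at 100, 9.56, 5.65 and 8.40 at 300, 12.8, 8.24 and 8.88 at 600 and 9.998 and 8.67 at 900 mg/kg/day. Its iron-sulphur partner Ndufv2 measured 129, 236 and 199 CPM in the vehicle litters, 103, 209.6 and 212 at 100, 199.5, 189.6 and 209.9 at 300, 216, 189 and 188 at 600 and 115 and 143 at 900 mg/kg/day. Ndufv2 was low in vehicle litter 1, 100 mg/kg/day litter 1 and the 900 mg/kg/day litters, at 103 to 143 CPM, and stood at 188 to 236 CPM in the other 10. The groups overlapped, and the log2 fold change at 900 mg/kg/day was -0.55 ± 0.28 (edgeR adjusted p = 0.852).

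Ndufs1, the largest iron-sulphur subunit, measured 13.6, 9.66 and 8.23 CPM in the vehicle litters, 15.2, 6.86 and 8.26 at 100, 9.24, 8.84 and 8.25 at 300, 9.88, 9.79 and 9.80 at 600 and 9.998 and 8.67 at 900 mg/kg/day, with both highest values in the 2 litters that lay apart at low dose. Ndufs3, another core subunit of the peripheral arm, measured 117, 155 and 148 CPM in the vehicle litters, 112, 146 and 149 at 100, 146, 129.9 and 134 at 300, 149.9, 126 and 129.8 at 600 and 109.7 and 112 at 900 mg/kg/day. All 900 mg/kg/day values of Ndufs3 lay below all vehicle values, with a log2 fold change of -0.34 ± 0.15 (edgeR adjusted p = 0.852), but 100 mg/kg/day litter 1 was as low. The iron-sulphur subunits Ndufs7 and Ndufs8, which hand electrons on toward ubiquinone, had fold changes of -0.13 ± 0.22 and -0.39 ± 0.20 at 900 mg/kg/day (adjusted p = 0.879 and 0.852 in edgeR). Ndufs7 was highest and Ndufs8 lowest in 100 mg/kg/day litter 1, at 105 and 423 CPM.

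Among the accessory subunits, those with the smallest slope p were Ndufa6, Ndufs4 and Ndufa2. Ndufs4, which stabilises the NADH-oxidising end of the complex, measured 372, 511 and 676 CPM in the vehicle litters, 439, 648 and 681 at 100, 486, 406 and 557 at 300, 574, 523 and 410.2 at 600 and 352 and 392 at 900 mg/kg/day. Its slope was -0.051 ± 0.023 log2 per 100 mg/kg/day (edgeR adjusted p = 0.963), and vehicle litter 1 was as low as the 900 mg/kg/day litters. Ndufa6 measured 38.4, 35.6 and 48.1 CPM in the vehicle litters, 43.1, 37.5 and 37.5 at 100, 34.2, 37.2 and 35.0 at 300, 33.6, 34.4 and 35.7 at 600 and 34.3 and 33.5 at 900 mg/kg/day, a narrow spread in which the 300 and 600 mg/kg/day litters overlapped the lowest vehicle litter and the 900 mg/kg/day litters lay below it. Its slope was -0.031 ± 0.013 (edgeR adjusted p = 0.857). Ndufa2 stood at 62.2 and 63.97 CPM at 900 mg/kg/day against 77.7 to 87.0 CPM in vehicle, with 300 mg/kg/day litter 3 lower still at 60.3 CPM, and its fold change at 900 mg/kg/day was -0.37 ± 0.15 (edgeR adjusted p = 0.852). Ndufa4 stood at 176 and 181 CPM against 189.5 to 235 CPM in vehicle, a fold change of -0.25 ± 0.11 (edgeR adjusted p = 0.852). Over all 29 complex I genes the fold changes at 900 mg/kg/day ran from -0.67 (Ndufb6) to 0.18 (Ndufb11).

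Complex II has 4 subunits, all tested. Sdha, the flavoprotein that oxidises succinate, measured 254, 236 and 248 CPM in the vehicle litters, 254, 218 and 247 at 100, 222, 229 and 255 at 300, 238, 210.2 and 219.5 at 600 and 259.8 and 235 at 900 mg/kg/day. No dose group stood apart, and the log2 fold change at 900 mg/kg/day was 0.0079 ± 0.11 with a 95% interval of -0.23 to 0.25 (edgeR adjusted p = 0.989). Sdhb, the iron-sulphur subunit, measured 917, 973 and 1062 CPM in the vehicle litters, 837, 972 and 953 at 100, 823, 912 and 925 at 300, 899.6, 894 and 864 at 600 and 782 and 814 at 900 mg/kg/day. Its 600 and 900 mg/kg/day litters all lay below all vehicle litters. The mean CPM was 984 ± 73.0 (SD, n = 3) in vehicle, 886 ± 18.9 (SD, n = 3) at 600 and 798 ± 23.0 (SD, n = 2) at 900 mg/kg/day. The log2 fold change was -0.15 ± 0.093 at 600 and -0.30 ± 0.10 at 900 mg/kg/day, and the slope -0.027 ± 0.0093 (edgeR adjusted p = 0.95, 0.684 and 0.547). Sdhb had the smallest unadjusted slope p of all members, 0.0106, and did not pass.

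The membrane anchors Sdhc and Sdhd bind ubiquinone. Sdhc had values of 143 and 152 CPM at 900 mg/kg/day against 153 to 207 CPM in vehicle, and its lowest value, 119 CPM, was in 100 mg/kg/day litter 1. Sdhd stood at 8.07 and 7.30 CPM at 900 mg/kg/day against 8.69 to 10.15 CPM in vehicle. Their fold changes at 900 mg/kg/day were -0.24 ± 0.20 and -0.27 ± 0.19 (edgeR adjusted p = 0.852 for both). At 900 mg/kg/day Sdha was thus close to its vehicle level while the values of its 3 partners were lower, a difference between genes that was not tested.

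Transcription of respiratory chain genes is known to use nuclear respiratory factor 1 (NRF1), ETS factors of the GABP type and YY1, so the letters of their motifs were searched on both strands in the RefSeq promoters of the rat build GRCr8, each running from 250 bases before to 50 after a gene's start. Promoters were given for 62 of the 72 rows. GCGC, any 1 base and TGCGC in a row (NRF1) was found in 12 of 62 member promoters, or 19.4%, against 6.09% of 19005 protein-coding promoters of the same length. CCGGAAG (ETS) was found in 17 (27.4% against 11.24%), AAGATGGCG (YY1) in 9 (14.5% against 2.29%) and the GC box GGGCGG in 27 (43.5% against 43.1%). None of the 4 motifs contains another. A match is a description and says nothing of binding. The promoters of Sdha and Sdhb are shown because the genes encode partners of 1 enzyme and had different values at 900 mg/kg/day, those of Uqcrc1 and Ndufv2 because these genes had opposite patterns over the litters. All are written 5′ to 3′ on the strand of the gene, with matches to the 4 motifs in capitals.
Sdha: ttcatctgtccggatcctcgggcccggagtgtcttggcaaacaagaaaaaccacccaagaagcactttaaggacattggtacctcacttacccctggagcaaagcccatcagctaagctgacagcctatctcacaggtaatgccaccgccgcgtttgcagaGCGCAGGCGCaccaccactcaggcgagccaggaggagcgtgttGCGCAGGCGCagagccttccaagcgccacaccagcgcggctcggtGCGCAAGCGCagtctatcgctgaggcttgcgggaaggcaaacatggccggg
Sdhb: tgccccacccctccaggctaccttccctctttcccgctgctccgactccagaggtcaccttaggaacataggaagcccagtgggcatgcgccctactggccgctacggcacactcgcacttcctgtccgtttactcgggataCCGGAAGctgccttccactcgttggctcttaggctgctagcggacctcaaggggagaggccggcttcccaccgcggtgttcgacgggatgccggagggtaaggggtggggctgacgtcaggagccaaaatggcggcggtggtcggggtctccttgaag
Uqcrc1: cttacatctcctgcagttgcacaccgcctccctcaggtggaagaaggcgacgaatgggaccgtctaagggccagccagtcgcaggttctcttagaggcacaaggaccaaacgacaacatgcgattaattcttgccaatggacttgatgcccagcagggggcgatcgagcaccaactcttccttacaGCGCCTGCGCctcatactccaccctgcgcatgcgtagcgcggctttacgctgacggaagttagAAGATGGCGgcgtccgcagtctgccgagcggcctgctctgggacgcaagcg
Ndufv2: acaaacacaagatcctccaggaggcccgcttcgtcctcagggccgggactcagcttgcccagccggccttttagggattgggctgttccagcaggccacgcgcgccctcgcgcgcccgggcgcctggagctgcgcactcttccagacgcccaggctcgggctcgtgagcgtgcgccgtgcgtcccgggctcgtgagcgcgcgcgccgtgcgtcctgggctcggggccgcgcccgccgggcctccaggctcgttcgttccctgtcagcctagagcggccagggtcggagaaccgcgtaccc

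The Sdha promoter (chr1:30764303-30764602, plus strand, GRCr8) held 3 matches to the NRF1 letters, beginning at bases 162, 205 and 250 counted from the first printed base. The Sdhb promoter (chr5:158547684-158547983, plus strand, GRCr8) held 1 match to the ETS letters, at base 143. The Uqcrc1 promoter (chr8:118467973-118468272, plus strand, GRCr8) held 1 NRF1 match at base 187 and 1 YY1 match at base 250. The Ndufv2 promoter (chr9:113157471-113157770, minus strand, GRCr8) held none of the 4.

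Complex III, the cytochrome bc1 complex, held members that varied widely between litters. Uqcrc1, a core protein of the complex, measured 136, 27.4 and 52.0 CPM in the vehicle litters, 215, 27.0 and 32.6 at 100, 30.6, 54.6 and 33.2 at 300, 29.9, 47.6 and 32.0 at 600 and 113 and 87.1 at 900 mg/kg/day. It stood at 136 CPM in vehicle litter 1, 215 CPM in 100 mg/kg/day litter 1 and 113 and 87.1 CPM at 900 mg/kg/day, and at 27.0 to 54.6 CPM in the other 10 litters. Within the vehicle group alone it thus spanned 27.4 to 136 CPM, and the log2 fold change at 900 mg/kg/day was 0.48 ± 0.77 (edgeR adjusted p = 0.872). The Rieske iron-sulphur protein gene Uqcrfs1 measured 23.6, 5.67 and 14.5 CPM in the vehicle litters, 47.9, 6.222 and 8.67 at 100, 8.49, 12.0 and 7.80 at 300, 10.002, 11.8 and 6.66 at 600 and 24.7 and 18.6 at 900 mg/kg/day. It was high in the same 4 litters (18.6 to 47.9 CPM) and stood at 5.67 to 14.5 CPM in the other 10, with a fold change at 900 mg/kg/day of 0.57 ± 0.71 (edgeR adjusted p = 0.857).

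The second core protein Uqcrc2, measured at low counts, went the other way in 100 mg/kg/day litter 1, at 0.523 CPM against 1.71 to 3.87 CPM in all other litters, and its fold change at 900 mg/kg/day was -0.39 ± 0.50 (edgeR adjusted p = 0.858). The small subunits were steadier. Uqcr10 measured 103, 89.2 and 104 CPM in the vehicle litters, 93.9, 90.5 and 102 at 100, 90.3, 96.6 and 96.0 at 300, 93.5, 96.4 and 85.6 at 600 and 85.2 and 87.5 at 900 mg/kg/day. The 900 mg/kg/day values of Uqcr10 lay below vehicle by a small margin, with a fold change of -0.19 ± 0.11 (edgeR adjusted p = 0.852). The hinge protein gene Uqcrh stood at 149 and 159 CPM at 900 mg/kg/day within the vehicle range of 124 to 166 CPM, and its fold change was 0.051 ± 0.13 with a 95% interval of -0.22 to 0.32.

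**Figure D3:**
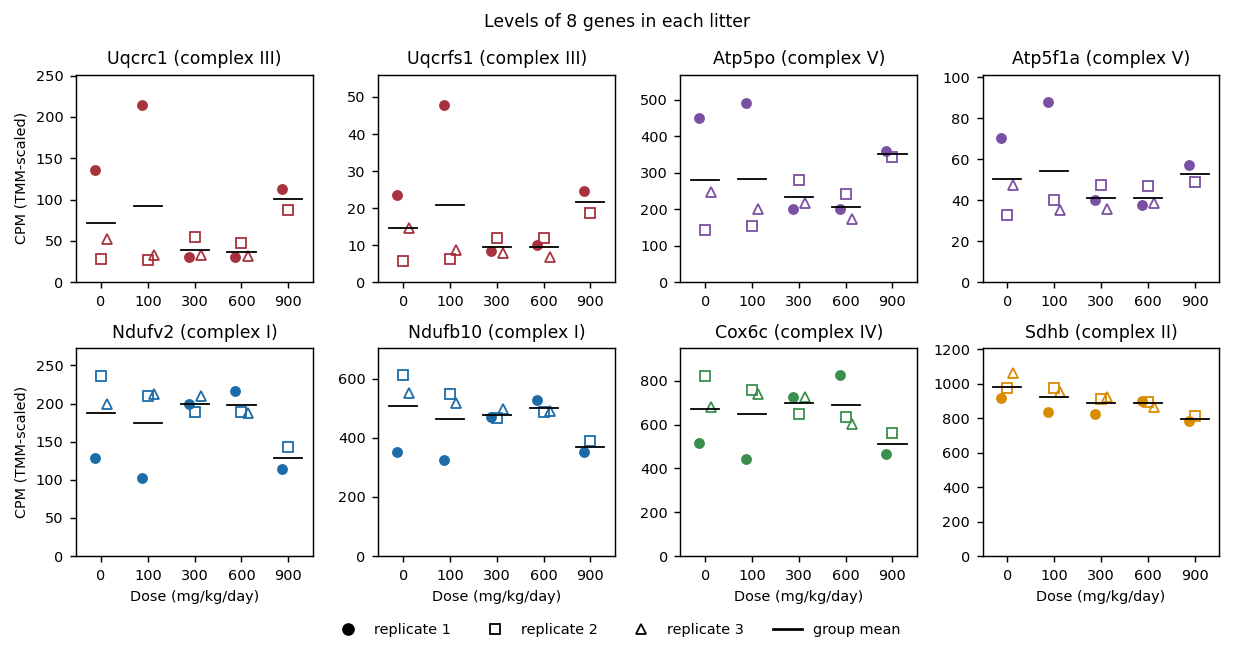
CPM after TMM scaling in each litter (marks by replicate number, which is only a name) with the group mean (line) for 8 members, by dose; 4 were chosen as high and 3 as low in the litters that lay apart, and Sdhb for its slope. Uqcrc1 stood at 136 and 215 CPM in replicate 1 of vehicle and 100 mg/kg/day, above all 10 litters between 27.0 and 54.6 CPM.

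Complex IV, cytochrome c oxidase, exists with alternative isoforms of several subunits. Cox4i1, the general isoform of subunit 4, measured 1204, 1014 and 1090.0 CPM in the vehicle litters, 1279.8, 1083 and 1063 at 100, 1042, 1075 and 1051 at 300, 1097, 1046 and 1116 at 600 and 1080.1 and 1091 at 900 mg/kg/day. All groups overlapped, and its fold change of -0.023 ± 0.11 at 900 mg/kg/day had a 95% interval of -0.25 to 0.21. Cox4i2, the isoform known from lung and low oxygen, stood at 36.2 to 44.8 CPM over all 14 litters, with a fold change of 0.040 ± 0.13 and an interval of -0.24 to 0.32. Neither isoform of this pair passed the test in any comparison (edgeR adjusted p = 0.961 and 0.939 at 900 mg/kg/day).

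Cox7b, a small subunit, had the smallest unadjusted p of all members at 900 mg/kg/day, 0.0116. It measured 468, 461 and 517 CPM in the vehicle litters, 398, 437 and 444 at 100, 374, 492 and 447 at 300, 478, 486 and 512 at 600 and 389.7 and 367 at 900 mg/kg/day. The 900 mg/kg/day litters, with a mean CPM of 378 ± 16.3 (SD, n = 2), lay below the vehicle litters, with a mean CPM of 482 ± 30.2 (SD, n = 3), but 300 mg/kg/day litter 1 was as low, and the fold change was -0.35 ± 0.12 (edgeR adjusted p = 0.666). Cox6a1, the general isoform of subunit 6a, stood at 853 and 851 CPM at 900 mg/kg/day against 904 to 1054 CPM in vehicle, a fold change of -0.20 ± 0.17 (edgeR adjusted p = 0.852), and its lowest value, 731 CPM, was in 100 mg/kg/day litter 2. Cox6c was low in vehicle litter 1 (517 CPM), 100 mg/kg/day litter 1 (444 CPM) and the 900 mg/kg/day litters (468 and 561 CPM), and at 603 to 828 CPM elsewhere, with a fold change of -0.39 ± 0.23 (edgeR adjusted p = 0.852). Cox5a, a subunit on the matrix side, had a fold change of -0.14 ± 0.20 at 900 mg/kg/day (edgeR adjusted p = 0.868).

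Cox7a2l, which joins complexes III and IV into supercomplexes, stood at 69.6 to 202 CPM in vehicle, and at 180 and 181 CPM at 900 mg/kg/day. Its fold change was 0.34 ± 0.33 (edgeR adjusted p = 0.852), and that of the like-named Cox7a2l2 was -0.11 ± 0.26. Cox8c, the testis isoform of subunit 8, was barely counted, at 0.261 to 1.49 CPM, and gave an interval of -1.62 to 1.65 at 900 mg/kg/day, so that no statement on its direction can be made at this depth.

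ATP synthase has a catalytic F1 head and a membrane rotor. Atp5f1b, the catalytic beta subunit, measured 2187, 1971 and 2369 CPM in the vehicle litters, 2340.3, 2284 and 2236 at 100, 2122, 2124 and 2185 at 300, 2226, 2056 and 1900.1 at 600 and 1976 and 1913 at 900 mg/kg/day. Its slope was -0.022 ± 0.009 log2 per 100 mg/kg/day (edgeR adjusted p = 0.844), and vehicle litter 2 lay within the 900 mg/kg/day range. Atp5f1d, the delta subunit of the stalk, measured 627, 649 and 689 CPM in the vehicle litters, 611, 670.2 and 654 at 100, 613, 633 and 654 at 300, 647, 626 and 599 at 600 and 540.4 and 576 at 900 mg/kg/day. The 900 mg/kg/day litters were the lowest of all 14, with a slope of -0.021 ± 0.0082 and a fold change at 900 mg/kg/day of -0.23 ± 0.092 (edgeR adjusted p = 0.758 and 0.852). The alpha subunit Atp5f1a stood instead at 70.1 CPM in vehicle litter 1, 87.7 CPM in 100 mg/kg/day litter 1 and 57.0 and 48.9 CPM at 900 mg/kg/day, above the other 10 litters (32.5 to 47.5 CPM), with a fold change of 0.079 ± 0.36 (edgeR adjusted p = 0.958).

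The c ring of the rotor is encoded by Atp5mc1, Atp5mc2 and Atp5mc3, which give the same mature protein. Their fold changes at 900 mg/kg/day were -0.54 ± 0.43, 0.067 ± 0.19 and 0.050 ± 0.29 (edgeR adjusted p = 0.852, 0.929 and 0.968). In 100 mg/kg/day litter 1 Atp5mc1 was at its lowest, 6.79 CPM, while Atp5mc2 and Atp5mc3 were at their highest, 75.9 and 50.4 CPM. Atp5if1, the inhibitor that stops ATP synthase from running backwards, measured 6.55, 7.07 and 6.06 CPM in the vehicle litters, 9.67, 4.70 and 5.61 at 100, 6.45, 6.63 and 7.95 at 300, 9.13, 8.55 and 8.69 at 600 and 6.99 and 7.39 at 900 mg/kg/day. The 600 mg/kg/day litters lay above the vehicle litters, with a fold change of 0.42 ± 0.24, and the 900 mg/kg/day litters were nearer to vehicle, with 0.13 ± 0.27 (edgeR adjusted p = 0.95 and 0.896). Its slope, 0.034 ± 0.025, was the most positive of the 64 (edgeR adjusted p = 1).

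In many members the same litters stood apart. Vehicle litter 1 and 100 mg/kg/day litter 1 both lay above the other 10 litters at 0 to 600 mg/kg/day in 14 of 64 members (21.9%, against 22.7% of all genes) and both below them in 18 (28.1%, against 18.1%). With the 900 mg/kg/day litters added to them, all 4 lay above the other 10 litters in 6 members (9.38%, against 13.3% of all genes), which were Uqcrc1, Uqcrfs1, Atp5f1a, Atp5po, Cox7a2l and Ndufb11. All 4 lay below the other 10 in 14 members (21.9%, against 10.19% of all genes). These were the complex I core subunits Ndufs3, Ndufs8 and Ndufv2, the genes Ndufa1, Ndufa4, Ndufa11, Ndufa12, Ndufb3, Ndufb5 and Ndufb10, and Sdhc, Cox6c, Atp5mg and Atp5pb. Members of 1 complex thus stood on both sides. Of the genes named here after their values were seen, Atp5po, the stalk protein that confers oligomycin sensitivity, stood at 451 CPM in vehicle litter 1 and 490.4 CPM in 100 mg/kg/day litter 1, and Ndufb10, an accessory subunit of the membrane arm, at 354 and 325 CPM. In the other 10 litters at 0 to 600 mg/kg/day Atp5po stood at 143 to 280.4 CPM and Ndufb10 at 468 to 613 CPM.

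Summed levels of cell markers moved with these litters in part. The erythroid markers (6 of 10 symbols had a row) summed to 4984 CPM in vehicle litter 1 and 4004 CPM in 100 mg/kg/day litter 1 against 1878 to 3195 CPM in the other vehicle, 100 and 300 mg/kg/day litters, but to 7325 CPM in 600 mg/kg/day litter 2 and to 2559 and 1563 CPM at 900 mg/kg/day. Striated muscle markers (14 of 15 symbols) summed to 109.99 to 153 CPM at 0 to 300, 181 to 201 CPM at 600 and 157 and 159 CPM at 900 mg/kg/day. Endothelial genes (8 of 8) summed to 372 to 441 CPM, and macrophage genes (9 of 9) to at most 62.7 CPM, in all litters. The Leydig markers, 8 of 8 tested, summed to 3912 CPM in vehicle litter 1 against 7997 and 5077 CPM in the other vehicle litters. They summed to 2448 CPM in 100 mg/kg/day litter 1 against 4412 and 3402 CPM in the others of that dose. The sums were 3290, 2375 and 3010 CPM at 300, 3352, 1838 and 1457 CPM at 600 and 1126 and 1373 CPM at 900 mg/kg/day. This sum thus did not separate the 4 litters that lay apart from the other 10. Cytosolic ribosomal protein genes summed to 40649 to 46392 CPM in the 4 litters that lay apart and to 49032 to 55521 CPM in the other 10, without overlap. The mitochondrial import and carrier genes did the same, with 2297 to 2576 CPM against 2917 to 3418 CPM. So did the carriers and subunits outside the name pattern, with 839 to 901 CPM against 930 to 1013 CPM. Genes of mitochondrial biogenesis also did, with 634 to 677 CPM against 694 to 789 CPM. Sums of assembly factors and of citric acid cycle, glycolysis, antioxidant and mitochondrial ribosomal protein genes overlapped between the 4 litters and the other 10. A sum follows its genes of high level. At 900 mg/kg/day against vehicle, 8 of 16 import and carrier genes and 8 of 15 biogenesis genes had values below 0. So did 31 of 48 cytosolic ribosomal protein genes and 6 of 6 carriers and subunits. The part of these cell types and gene groups in the values of the respiratory chain genes was not tested.

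Without vehicle litter 1 and 100 mg/kg/day litter 1, 21 of 63 members passed at 900 mg/kg/day against vehicle (16.7% of all genes then passed), 18 passed at 900 against 600 mg/kg/day (14% of all genes) and 13 passed for the slope (11.8% of all genes). Ndufa8 then fell under the count filter. Of the 21 members at 900 mg/kg/day, 2 rose and 19 fell, while of all genes 962 rose and 1140 fell. The members that rose were Uqcrc1 (1.31, edgeR adjusted p = 0.0404) and Ndufb11 (0.55, 0.0238). The lowest of the others were Atp5mg, a small membrane subunit of ATP synthase (-1.22, 0.00412), Ndufv2 (-0.78, 0.00161), Ndufs4 (-0.70, 0.0249) and Ndufb10 (-0.69, 0.000736). Sdhb fell by 0.38 on the log2 scale (edgeR adjusted p = 0.011), while Uqcrfs1 at 1.08 and Atp5po at 0.82 did not pass (adjusted p = 0.064 and 0.0677 in edgeR). When only the 600 and 900 mg/kg/day litters were fitted, so that neither of the litters set aside took part, 20 of 63 members passed, 4 higher and 16 lower at 900 mg/kg/day, against 18% of all genes.

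At 100, 300 and 600 mg/kg/day against vehicle 0 members passed without these litters too, beside 0%, 0.309% and 0.523% of all genes. With such small shares, 0 members is near the background. Leaving out any 1 of the 14 litters gave 0 members in all 8 comparisons. Where 1 litter at 0 to 600 mg/kg/day was left out, at most 0.599% of all genes passed, so 0 members there is near the background too. Calls at 900 mg/kg/day thus came only from fits in which neither vehicle litter 1 nor 100 mg/kg/day litter 1 took part. Where they were set aside, they had been picked for lying apart in these data. The fit of only the 600 and 900 mg/kg/day litters set no litter of either group aside. Dose and whatever sets vehicle litter 1, 100 mg/kg/day litter 1 and the 900 mg/kg/day litters apart cannot be told apart in the 900 mg/kg/day group.

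**Figure D4:**
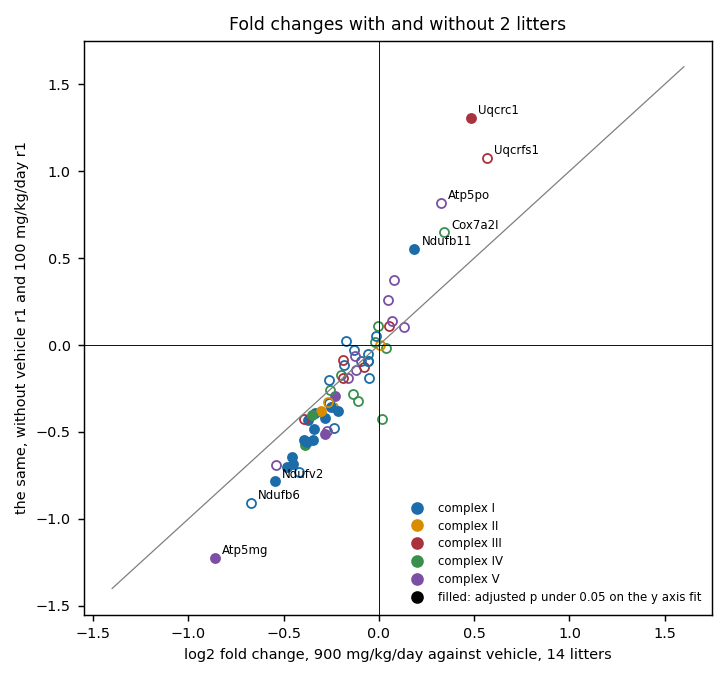
Log2 fold change of each member at 900 mg/kg/day against vehicle with all 14 litters (x axis) and without vehicle litter 1 and 100 mg/kg/day litter 1 (y axis), coloured by complex, with filled points for an adjusted p under 0.05 on the y axis and the grey line marking equal values. Uqcrc1 stood at 0.48 with all litters and at 1.31 without the 2, and Atp5mg at -0.86 and -1.22.

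The mitochondrial genes of steroid synthesis, measured in the same litters, give the scale of response that the assay recorded for these genes in pooled testis RNA. Fdx1 measured 2459, 3491 and 2541 CPM in the vehicle litters, 1645, 2342 and 1421 at 100, 1143, 1038 and 976 at 300, 862, 749.7 and 578 at 600 and 406 and 509 at 900 mg/kg/day. Star stood at 209 to 343 CPM in vehicle and at 45.5 and 47.5 CPM at 900 mg/kg/day, and Cyp11a1 at 696 to 1083 and at 136 and 223 CPM. Of the 6 listed genes, 2 already fell at 300 mg/kg/day, where 0.0472% of all genes passed. Fdx1, Star and Cyp11a1 fell at 600 (0.22% of all genes passed) and at 900 mg/kg/day (0.252%). For the slope Hsd3b1 fell as well (0.425%), and 0 of the listed genes rose. The fold changes at 900 mg/kg/day were -2.63 ± 0.22 for Fdx1, -2.58 ± 0.28 for Star and -2.24 ± 0.29 for Cyp11a1 (edgeR adjusted p = 0.000729, 0.00275 and 0.00805). Fdxr had -0.53 ± 0.27 and did not pass (edgeR adjusted p = 0.852). No member of the respiratory chain lay outside -0.86 to 0.57 at that dose in the fit of all litters. Without vehicle litter 1 and 100 mg/kg/day litter 1, Uqcrc1 and Atp5mg lay beyond that range, as given above. Star and Cyp11a1 are among the Leydig markers, while the values of the members are those of all testis cells together. A change of the members in Leydig cells alone was not tested, so the 2 ranges do not show that these genes were spared there.

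**Figure D5:**
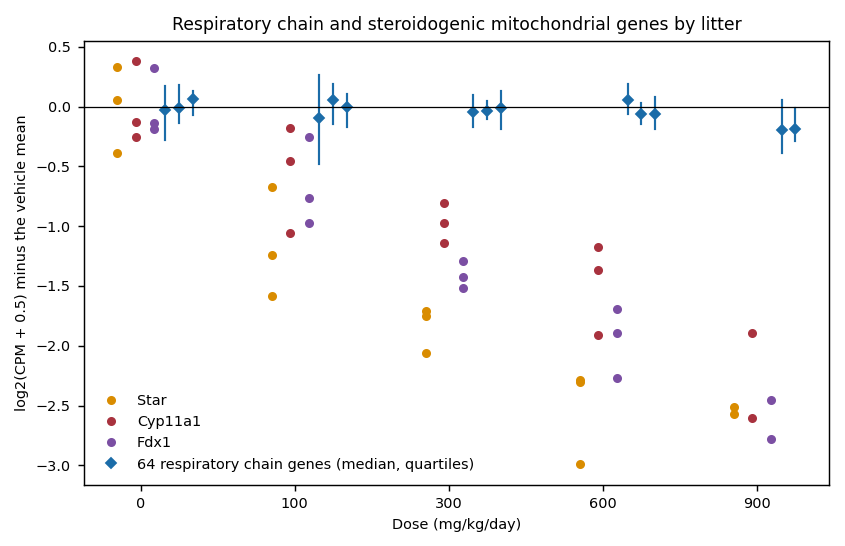
log2(CPM + 0.5) minus the vehicle mean in each litter for Star, Cyp11a1 and Fdx1 (circles) and the median with quartiles of the 64 tested respiratory chain members (diamonds and bars), by dose. The circles descend with dose while the diamonds stay near 0 up to 600 mg/kg/day and lie slightly below it at 900 mg/kg/day.

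Genes that build or feed the chain were counted in the same way. None of 30 tested assembly factors of complexes I to V passed in any comparison, and their median log2 fold change at 900 mg/kg/day was -0.019. The smallest slope p among them belonged to Sdhaf1, a maturation factor of Sdhb, with -0.75 ± 0.24 at 900 mg/kg/day (edgeR adjusted p = 0.58). The 6 tested carriers and enzymes outside the name pattern, among them the complex III subunit Cyc1 (-0.027 ± 0.21) and the ubiquinone synthesis gene Coq7 (-0.37 ± 0.20), all had values below 0 at 900 mg/kg/day with a median of -0.23, and 0 passed. The mitochondrially encoded subunits Mt-nd4l of complex I and Mt-cyb of complex III, 2 of 13 such symbols with a row in the table, had -0.23 ± 0.16 and 0.035 ± 0.16 at 900 mg/kg/day and did not pass. Of 15 tested genes of mitochondrial biogenesis 0 passed, with Nrf1 at -0.20 ± 0.13, and the coactivator Ppargc1a was counted at no more than 1.40 CPM in any litter.

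Other mitochondrial lists also held 0 called genes at every dose and for the slope, in the same fit and beside the same shares of all genes (at most 0.425%). These were the citric acid cycle with pyruvate dehydrogenase (13 tested, median -0.12 at 900 mg/kg/day), import and carrier genes (16, -0.037), antioxidant genes (10, -0.15) and mitochondrial ribosomal proteins (67, -0.078). Outside mitochondria, the same was true of glycolysis (13, -0.04) and cytosolic ribosomal proteins (48, -0.12). The nearest to the threshold were Sod2, the manganese superoxide dismutase, with a slope of -0.06 ± 0.014 (edgeR adjusted p = 0.0854), and Ogdh, a subunit of the 2-oxoglutarate dehydrogenase complex, with -0.036 ± 0.0085 (edgeR adjusted p = 0.0975). The respiratory chain median at 900 mg/kg/day, -0.19, lay below those of these 6 lists and above that of the 6 carriers and enzymes (-0.23), and these differences were not tested.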

How the data were processed

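Fetal testis RNA from 14 litters was measured with TempO-Seq. The submitters' processing notes name STAR 2.7.8a, Partek, DESeq2 and the build rn7, without saying which step each served. The deposited values used are estimated counts per gene, made by the authors with a counter not given in the sources used here, and 83.6% of them are whole (tolerance 1e-09). They were rounded. A deposited table of attenuation-adjusted counts differs in 16 genes, none of them a member, and was used as an alternative. Further deposited log2 values were not used.

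Members and gene lists were chosen with earlier results of these data known. Genes were filtered with filterByExpr on the dose groups (12719 of 18174 kept, with 99.9% of counts), scaled by TMM and fitted in edgeR 4.0.16 (limma 3.58.1, R 4.3.3) with the quasi-likelihood test, robust dispersions and 1 coefficient per dose group over all 14 libraries (9 residual degrees of freedom, common biological coefficient of variation 0.232). A second fit gave the slope. Tests are two-sided, fold changes are log2 ± standard error, intervals are 95% and p-values are Benjamini-Hochberg adjusted over all tested genes. CPM use TMM-scaled totals. Library totals of 5558873 to 11272861 limit the precision of genes with few counts.

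Named members are those past the threshold, the 3 (complex I, IV and V) or 2 (II and III) with the smallest slope p, core and catalytic subunits, paralogue pairs, Atp5if1 and those filtered out. Of each other list, genes past the threshold and up to 2 with the smallest slope p could be named, plus Star, Cyp11a1, Fdx1, Fdxr, Cyc1 and, where tested, Cycs and Ndufab1, of which neither was. Other named genes were chosen after their values were seen. Groups come from the dose label. Litters, the unit of replication, carry numbers given in accession order. Alternatives were RLE scaling, library totals, no filter on low counts, DESeq2 1.42.0, attenuation-adjusted counts, each litter left out in turn, vehicle litter 1 and 100 mg/kg/day litter 1 left out together, only the compared groups, and dose rank for the slope. The edgeR fit was run on simulated counts in which litters varied independently and none lay apart. That run therefore says nothing on results that rest on vehicle litter 1 and 100 mg/kg/day litter 1.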

Additional observations from a re-analysis of the deposited data

How the results depend on the processing

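No paired analysis was possible because litters of different doses share no number in the labels. Members called stayed at 0 under every alternative run in all 8 comparisons, apart from the following. Without vehicle litter 1 and 100 mg/kg/day litter 1 together, 21 members passed at 900 mg/kg/day against vehicle, 18 at 900 against 600 and 13 for the slope, and the members' medians were -0.26 at 900 mg/kg/day and -0.024 for the slope. With only the compared groups fitted, 20 passed at 900 against 600 mg/kg/day, with a median of -0.24. In the fits with 0 members at most 0.936% of all genes passed, so 0 is near the background there. Scaling by library totals moved the median to -0.11 at 900 mg/kg/day against vehicle, -0.056 at 600 against 300 and -0.072 at 900 against 600, while the median of all genes moved alike, to 0.105, -0.059 and 0.139. Leaving out 1 litter at a time gave medians of -0.043 to 0.0057 at 100, -0.096 to -0.021 at 300 and -0.092 to -0.0064 at 600 mg/kg/day against vehicle and -0.26 to -0.14 at 900 against 600. Of 1435 values of named members under the alternatives, 78 had the other sign and 18 were called, each in a fit where the member had not been called before. The cause was not tested. Small numbers of litters limit all of this: at 900 mg/kg/day, leaving out 1 litter leaves a single one, which is then assumed to vary like the other groups, and the counts of the 8 untested members are too low to show a change.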
